A study of Mus musculus with 22 samples.

Results

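Fgfbp1, Cyp2s1, Krt20 and Rbp2 are 4 of the 18716 rows of a table of gene expression in mouse livers. They were chosen by the measured values themselves, for large rises of the livers given an agent labelled YC over the livers given vehicle with no overlap between both groups, so that difference is described here and not tested. All 22 livers carry the genotype label Fah-/-, which stands for loss of the Fah gene, whose enzyme completes tyrosine breakdown. The 7 YC livers and the 8 vehicle livers came from mice that had received hepatocytes labelled td and were given YC or vehicle for 28 days after NTBC, a drug that blocks an earlier step of tyrosine breakdown and protects livers without Fah, was withdrawn. The 7 D0 livers, labelled as normal liver, carry the same genotype and were taken on day 0. No source used here gives the strain, age, dose of YC or origin of the td hepatocytes. Polyadenylated RNA of whole liver was sequenced, and levels are RPKM, reads normalised for gene length and sequencing depth. Group means below are given ± SD over libraries (n = 7 YC, n = 8 vehicle, n = 7 D0).

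The products of the 4 genes work in different places. Fgfbp1 is a secreted carrier that releases fibroblast growth factors (FGFs) from the heparan sulfate of the matrix and brings them to their receptors. Rbp2 is the cellular retinol-binding protein of small intestinal enterocytes, where it holds newly absorbed vitamin A for esterification. Cyp2s1 is a cytochrome P450 known mainly from epithelia outside the liver and inducible through the aryl hydrocarbon receptor. Krt20 is a type I keratin, a subunit of the intermediate filaments of intestinal and gastric epithelium and of the urothelium. Adult hepatocytes are known for Krt8 and Krt18 in place of Krt20.

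On mm10, Fgfbp1 lies on chromosome 5 (43978858 to 43981779, minus strand), Rbp2 on chromosome 9 (98486115 to 98509781, plus strand), Cyp2s1 on chromosome 7 (25802475 to 25816913, minus strand) and Krt20 on chromosome 11 (99428403 to 99438150, minus strand), from the first to the last base that GENCODE M21 annotates. The promoters are shown because the 4 genes are high in the same livers. Each line gives the 250 bases before the gene's start in RefSeq (GRCm38.p6, the same build), 5′ to 3′ on the gene's own strand. Fgfbp1 is chr5:43981800-43982049, Rbp2 is chr9:98490287-98490536, Cyp2s1 is chr7:25816526-25816775 and Krt20 is chr11:99438154-99438403. Capitals mark TATAAA (the TATA box core), GGGCGG (the GC box), GGAATG (the core bound by TEAD factors) and GCGTG (the core bound by the aryl hydrocarbon receptor) on either strand, and a match on the opposite strand appears as its reverse complement. The RefSeq starts of Cyp2s1 and Rbp2 lie inside the GENCODE spans.
Fgfbp1: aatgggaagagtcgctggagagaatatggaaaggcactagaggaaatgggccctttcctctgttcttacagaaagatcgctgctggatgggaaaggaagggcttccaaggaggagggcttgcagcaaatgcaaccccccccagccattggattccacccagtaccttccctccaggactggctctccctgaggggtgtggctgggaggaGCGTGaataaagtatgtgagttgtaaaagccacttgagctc
Rbp2: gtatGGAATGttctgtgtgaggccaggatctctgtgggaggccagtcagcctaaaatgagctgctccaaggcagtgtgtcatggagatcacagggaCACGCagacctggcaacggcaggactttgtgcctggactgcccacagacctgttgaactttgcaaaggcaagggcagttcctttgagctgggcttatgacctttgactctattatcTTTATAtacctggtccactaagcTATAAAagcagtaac
Cyp2s1: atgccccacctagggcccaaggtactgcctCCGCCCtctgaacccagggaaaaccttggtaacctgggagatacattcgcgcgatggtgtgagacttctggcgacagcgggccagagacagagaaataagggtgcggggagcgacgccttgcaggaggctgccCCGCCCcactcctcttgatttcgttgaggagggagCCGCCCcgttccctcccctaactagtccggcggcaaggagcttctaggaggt
Krt20: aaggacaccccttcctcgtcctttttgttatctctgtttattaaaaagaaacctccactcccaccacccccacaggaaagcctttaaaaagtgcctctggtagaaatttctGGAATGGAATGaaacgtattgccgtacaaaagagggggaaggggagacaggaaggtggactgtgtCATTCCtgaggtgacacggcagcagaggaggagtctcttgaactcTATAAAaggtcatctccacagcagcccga

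The promoters differed in these letters. Counted from the start base as 0, TATAAA began at -29 in Krt20 and at -15 in Rbp2, which also held it at -38 on the opposite strand. Fgfbp1 held TATAAA only at 3, in the 50 bases after the start that were searched but are not shown, and Cyp2s1 held none. Of 32851 RefSeq promoters of the same length, 13.6% held TATAAA. Cyp2s1 was the GC-rich one, with 62.0% GC and 15 CpG, against a median of 52.4% GC and 6 CpG over all promoters. It held GGGCGG at 3 places, all on the opposite strand, and the other promoters held none, while 35.7% of all promoters did. GGAATG was found at 3 places in Krt20 and at 1 in Rbp2 (14.7% of all promoters), and GCGTG at -41 and 28 in Fgfbp1 and at -154 in Rbp2 (32.4% of all promoters). Of the other motifs searched on both strands, AGGTCA, the core bound by nuclear receptors (16.3% of all promoters), was at -23 in Krt20, directly after its TATAAA, and at -58 in Rbp2 on the opposite strand. The antioxidant response core TGACNNNGC (12.4%) was at -63 in Krt20. The AP-1 site TGANTCA (7.81%), the CRE TGACGTCA (1.79%), the TCF core CTTTGAT (3.73%) and the HNF4 site CAAAGTCCA (0.475%) were in none of the 4. None of the 10 motifs searched was in all 4 promoters, and a match is a description of the letters only.

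Levels are given for every liver first. All 4 genes passed the filter on low values, at least 0.5 RPKM in 7 or more livers, through YC and vehicle livers alone, since no D0 liver reached 0.5 RPKM. Of the 12537 genes that passed, 6.52% had every YC liver above every vehicle liver and 11.2% had every vehicle liver above every D0 liver.

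Fgfbp1, the FGF carrier, had 41.3, 40.8, 27.3, 14.4, 27.0, 32.8 and 34.5 RPKM in YC livers 1 to 7. In the 8 vehicle livers it was between 0.325 and 6.12 RPKM with a median of 1.90, and in D0 livers it had 0.0731, 0.0706, 0.0289, 0.0305, 0.0293, 0.207 and 0.0608 RPKM. The 3 groups did not overlap, and YC 4, the lowest YC liver, stood above vehicle 3, the highest vehicle liver. Means were 31.1 ± 9.34 RPKM in YC livers, 2.44 ± 2.03 RPKM in vehicle livers and 0.0714 ± 0.0629 RPKM in D0 livers. The mean in YC livers was 12.8 times that in vehicle livers.

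Rbp2, the retinol carrier, had 64.5, 64.2, 19.7, 18.3, 23.5, 68.6 and 98.6 RPKM in YC livers 1 to 7. It was between 1.06 and 9.80 RPKM in vehicle livers, with a median of 3.66. It was listed at 0 in 5 of the 7 D0 livers and had 0.197 and 0.0580 RPKM in D0 6 and D0 7. YC livers formed 2 sets in this gene, YC 3, YC 4 and YC 5 at or under 23.5 RPKM and the other 4 at or above 64.2 RPKM, and both sets lay above every vehicle liver. Means were 51.0 ± 30.9 RPKM with YC and 4.18 ± 2.84 RPKM with vehicle, 12.2 times apart.

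Cyp2s1, the epithelial P450, had 45.0, 44.7, 27.6, 9.92, 27.8, 15.6 and 13.9 RPKM in YC livers 1 to 7. It was between 0.127 and 3.09 RPKM in vehicle livers, with a median of 1.45, and between 0 and 0.394 RPKM in D0 livers, with a median of 0.188. YC and vehicle livers did not overlap, whereas vehicle 4, at 0.127 RPKM, lay inside the D0 range. Means were 26.4 ± 14.3 RPKM in YC livers, 1.68 ± 1.09 RPKM in vehicle livers and 0.180 ± 0.150 RPKM in D0 livers, with YC 15.7 times vehicle.

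Krt20, the keratin, had 38.3, 34.9, 13.0, 13.1, 18.5, 28.3 and 26.9 RPKM in YC livers 1 to 7. It was between 0.215 and 4.93 RPKM in vehicle livers, with a median of 1.91, and between 0 and 0.0771 RPKM in D0 livers. The 3 groups did not overlap, and the highest vehicle liver was vehicle 1. Means were 24.7 ± 10.2 RPKM with YC and 1.84 ± 1.53 RPKM with vehicle, 13.4 times apart.

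**Figure D1:**
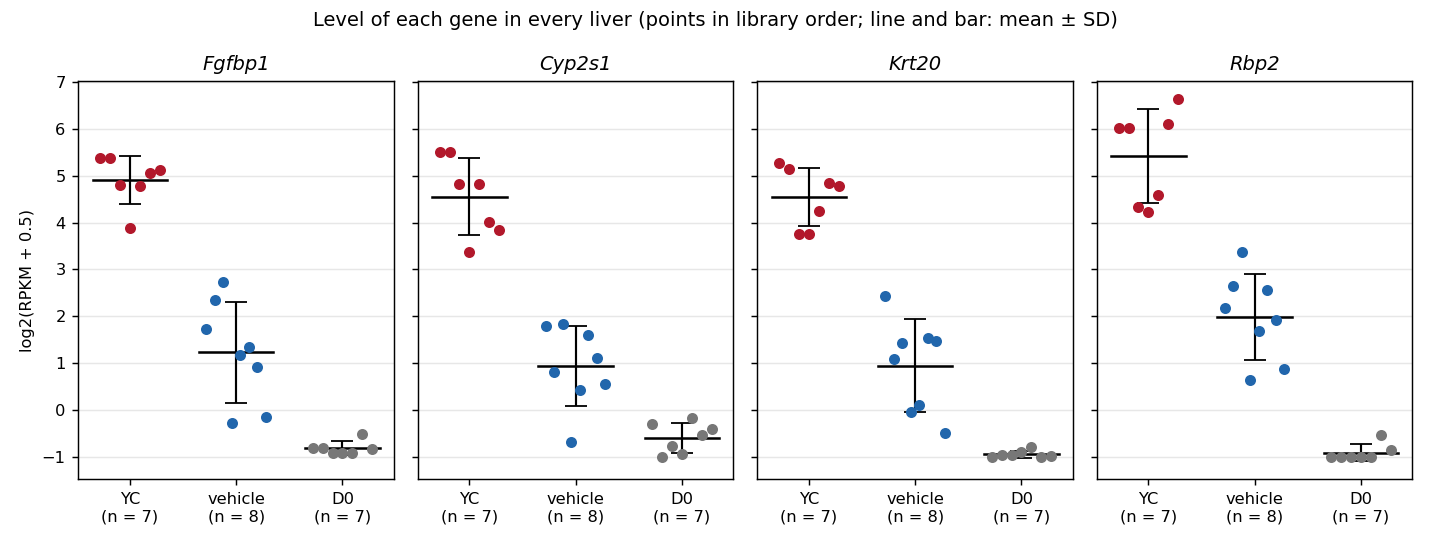
Level of Fgfbp1, Cyp2s1, Krt20 and Rbp2 as log2(RPKM + 0.5) in each of 7 YC, 8 vehicle and 7 D0 livers, with 1 point per liver in library order and the group mean ± SD in black. YC livers sit above vehicle livers in all 4 panels, and vehicle livers above D0 livers except for vehicle 4 in the Cyp2s1 panel.

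The low values rest on few reads. Depth was recovered from the steps between low RPKM values, 50300000 to 82900000 with YC, 51200000 to 71900000 with vehicle and 51200000 to 66300000 at D0, and whether these are reads or fragments is not known. On that scale Krt20 had 0, 2, 2, 4, 8, 0 and 1 reads in D0 livers 1 to 7, and Rbp2 had 7 and 2 reads in D0 6 and D0 7. Fgfbp1 had 2 to 14 reads in D0 livers, and Cyp2s1 had 52, 0, 12, 3, 55, 26 and 35. The lowest YC value of each gene lay far above this range, for Rbp2 at 713 reads in YC 4 and for Fgfbp1 at 1070 reads in the same liver. Intervals from reads would cover counting error only, so errors are the spread among livers, and nothing in the labels says that the libraries of a group came from separate animals.

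As log2(RPKM + 0.5), a scale that compresses differences at low levels, YC minus vehicle was 3.69 ± 0.34 for Fgfbp1, 3.62 ± 0.34 for Cyp2s1, 3.60 ± 0.33 for Krt20 and 3.43 ± 0.38 for Rbp2 (difference ± SE of the limma fit). Among the 7871 genes averaging 5 RPKM or more in YC or vehicle livers these were ranks 3 to 6, because the genes were selected on this difference. Afp (4.15) and Igf2 (4.07), both transcripts of the fetal liver, stood above them. Next below were Serpina5 (3.33), a serine protease inhibitor, Akr1c18 (3.21), a steroid-metabolizing reductase, and Cyp1a1 (3.12), the classic target of the aryl hydrocarbon receptor.

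Scaling moved these differences little against their size. The median of all tested genes was 0.31 higher in YC than in vehicle livers on the log2 scale as deposited and 0.01 after median-ratio scaling. With that scaling the 4 differences were 3.38 for Fgfbp1, 3.33 for Cyp2s1, 3.30 for Krt20 and 3.11 for Rbp2.

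Vehicle livers were compared with D0 livers, which took no part in the choice of the genes, while the vehicle livers entered it on their low side. All 4 genes rose in vehicle livers. The log2 difference from D0 was 2.89 ± 0.38 for Rbp2 (SE, limma adjusted p = 1.29e-06), 2.04 ± 0.34 for Fgfbp1 (limma adjusted p = 2.5e-05), 1.88 ± 0.33 for Krt20 (limma adjusted p = 4.87e-05) and 1.52 ± 0.34 for Cyp2s1 (limma adjusted p = 0.000591). Every vehicle liver lay above every D0 liver for Rbp2, Fgfbp1 and Krt20, and 7 of 8 did for Cyp2s1. Among all genes tested 28.2% rose and 29.9% fell in this comparison. The differences ranked 47 for Rbp2, 163 for Fgfbp1, 208 for Krt20 and 416 for Cyp2s1 of 12537. Transplantation, NTBC withdrawal, 28 days and the animals all differ between these groups and cannot be told apart, and Y-linked transcripts were found in 8 of 8 vehicle livers and in 0 of 7 D0 livers.

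YC minus D0 shares the livers of both comparisons above and is given only as values. It was 6.33 for Rbp2, 5.73 for Fgfbp1, 5.48 for Krt20 and 5.14 for Cyp2s1 on the log2 scale. For each of them every YC liver lay above every D0 liver, which held for 19.4% of all genes tested. These differences depend on the pseudocount, since D0 livers hold so few reads of the 4 genes.

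The 4 genes did not keep the same order in all livers. Per length, Rbp2 was the highest of them in YC 1, YC 2, YC 4, YC 6 and YC 7, and Cyp2s1 in YC 3 and YC 5. The ratio of Rbp2 to Cyp2s1 was 4.38 in YC 6 and 7.09 in YC 7, against 0.713 to 1.84 in YC 1 to YC 5. Vehicle livers had ratios of 1.34 to 8.29, so both ranges overlap. The means of Fgfbp1, Cyp2s1 and Krt20 in YC livers differed from one another by less than the SD of each, and that of Rbp2 exceeded the next by less than its own SD. These SDs are between livers and do not describe the order within a liver. Fgfbp1 stood above Krt20 in every YC liver, at ratios from 1.08 in YC 1 to 2.10 in YC 3.

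By the ratio of the highest to the lowest liver, YC livers spread less than vehicle livers in these genes. The highest YC liver held 2.87 times the lowest for Fgfbp1, 2.95 times for Krt20, 4.54 times for Cyp2s1 and 5.40 times for Rbp2. The highest vehicle liver held 18.8 times the lowest for Fgfbp1, 22.9 times for Krt20, 24.3 times for Cyp2s1 and 9.29 times for Rbp2. Vehicle 4 and vehicle 8 were the lowest vehicle livers for Fgfbp1, Krt20 and Rbp2, and vehicle 3 was the highest for Fgfbp1, Cyp2s1 and Rbp2. The choice of genes, which asked for YC livers that are all high, bears on the spread of the YC livers.

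Fah transcript, the gene the recipients are named for, also varied among YC livers, and the 4 genes differed in how they followed it. Fah was at 105, 128, 290, 407, 291, 41.3 and 31.5 RPKM in YC livers 1 to 7, between 271 and 542 RPKM in vehicle livers and between 21.1 and 38.7 RPKM in D0 livers. These YC values fall into 3 separate sets, so no correlation is given. Rbp2 was lowest in YC 3, YC 4 and YC 5, the livers with the most Fah, and highest in YC 7, the one with the least. Fgfbp1 and Krt20 were lowest in YC 3, YC 4 and YC 5 too, but highest in YC 1 and YC 2 and not in YC 6 and YC 7. Cyp2s1 was also highest in YC 1 and YC 2, at 45.0 and 44.7 RPKM. It was not lowest in YC 3, YC 4 and YC 5 as a set, at 27.6, 9.92 and 27.8 RPKM, against 15.6 and 13.9 RPKM in YC 6 and YC 7. YC 3, YC 4 and YC 5 had Fah within the range of the vehicle livers, and each of the 4 genes was above every vehicle liver in all 3 of them.

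**Figure D2:**
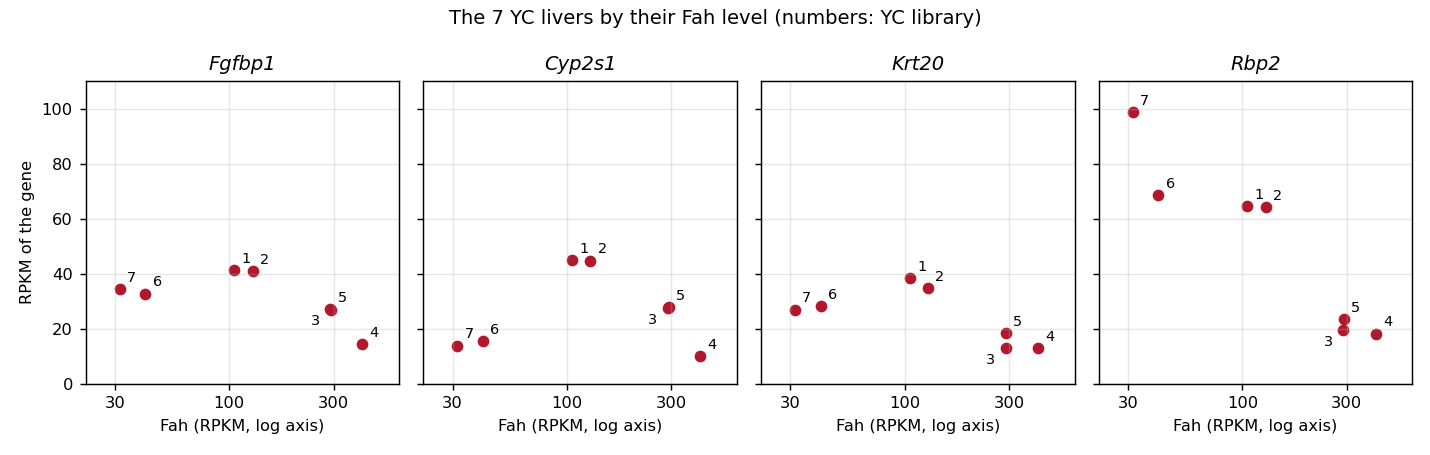
RPKM of each gene (vertical axis) against RPKM of Fah (horizontal axis, log scale) in the 7 YC livers, with the library number beside each point. Rbp2 is between 18.3 and 23.5 RPKM in the 3 livers with the most Fah and 98.6 RPKM in the liver with the least. Fgfbp1, Cyp2s1 and Krt20 are highest in YC 1 and YC 2.

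Within groups, 13 relations between pairs of these genes or with Fah were computed on log2 values. Fah and Rbp2 were left out in YC livers because they fall into separate sets there, for Rbp2 by a decision made after its values were seen. Fgfbp1 and Krt20 were both lowest in YC 3, YC 4 and YC 5, so their relation in YC livers may rest on such a set too. In YC livers Fgfbp1 and Krt20 moved together (Pearson r = 0.85, exact two-sided permutation p = 0.00298, adjusted 0.0193, and Spearman rho = 0.86, exact p = 0.0238, adjusted 0.0908, n = 7). Without YC 1 and YC 4, the livers farthest from the median of Fgfbp1, r was 0.91. For Fgfbp1 with Cyp2s1 r was 0.70 (exact permutation p = 0.056, adjusted 0.0909) and was 0.17 without those livers, so it rests on them. For Cyp2s1 with Krt20 r was 0.50 (exact permutation p = 0.243, adjusted 0.287). YC livers lie in near pairs (YC 1 with YC 2, YC 3 with YC 5), so they may count for fewer than 7 independent points.

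In vehicle livers Fgfbp1 and Rbp2 were the closest pair, with r = 0.96 (exact two-sided permutation p = 0.00057, adjusted 0.00742) and rho = 0.95 (exact p = 0.00114, adjusted 0.0148, n = 8). Without vehicle 3 and vehicle 4 r was 0.90. Cyp2s1 was related to Rbp2 (r = 0.82, exact permutation p = 0.0128, adjusted 0.0418) and to Krt20 (r = 0.81, exact permutation p = 0.0116, adjusted 0.0418). Without vehicle 3 and vehicle 4 these were 0.56 and 0.91, so the relation to Rbp2 rests partly on those livers, and rho was past the threshold for neither (adjusted 0.0908 each). No relation with Fah passed in vehicle livers, the largest being Cyp2s1 (r = -0.75, exact permutation p = 0.0343, adjusted 0.086), which was -0.33 without vehicle 1 and vehicle 4.

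The genes most like each of the 4 over all 22 livers were found by Pearson's r of log2 values, which the differences between groups largely set. For Fgfbp1 these were Acsm4 (0.982), Rbp2 (0.981), Serpina5, Mogat2 and Elovl7 (0.979 each). For Rbp2 they were Elovl7 (0.986), Asns and the pseudogene row H2-T-ps (0.983 each), Maoa (0.982) and Fgfbp1 (0.981). For Cyp2s1 they were Cldn4 (0.983), Ahnak2 (0.982), Fgd3, Bex2 and Ypel4 (0.980 each). For Krt20 they were Igf2 and Ypel4 (0.987 each), Mogat2 (0.986), Serpina5 and Cldn4 (0.984 each). Fgfbp1 and Rbp2 thus stood in each other's 5 nearest genes, whereas Rbp2 was number 124 for Cyp2s1. The 100 nearest genes of each shared 32 genes over all 4, among them Afp, Igf2, Cldn4, Mogat2 and Acsm4.

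Deviations from the group means, which take the group differences out, separated the 4 genes further. The closest genes were Acsm4 (0.896), Rbp2 and Eomes (0.840 each) for Fgfbp1, and Spink1 (0.913), Maoa (0.888) and Cited1 (0.885) for Rbp2. For Cyp2s1 they were Cpe (0.953), Ahnak2 (0.882) and Antxr1 (0.881), and for Krt20 Igf2 (0.921), Asns (0.911) and Mcm2 (0.882). Among the 4 genes the values were 0.840 for Fgfbp1 with Rbp2, 0.741 for Krt20 with Rbp2, 0.699 for Fgfbp1 with Krt20, 0.668 for Cyp2s1 with Krt20, 0.662 for Fgfbp1 with Cyp2s1 and 0.489 for Cyp2s1 with Rbp2. These are descriptions over 22 livers that share groups, and no p is given.

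The other genes of the pathways were counted from 11 lists with 197 genes, of which 128 passed the filter on low values. Of these 46 rose and 24 fell in YC against vehicle livers at a limma adjusted p under 0.05, with a median log2 difference of 0.19. Over all genes tested 44.6% rose and 6.14% fell, with a median of 0.31. After median-ratio scaling 26 of the 128 rose and 37 fell, and over all genes 2280 rose and 2097 fell, in place of 5587 and 770. Without YC 1 and YC 2, 15 of the 128 fell, and 421 of all genes. None of the 128 reached the lowest of the 4 differences, 3.43, which says little, since the 4 genes were selected on this difference.

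**Figure D3:**
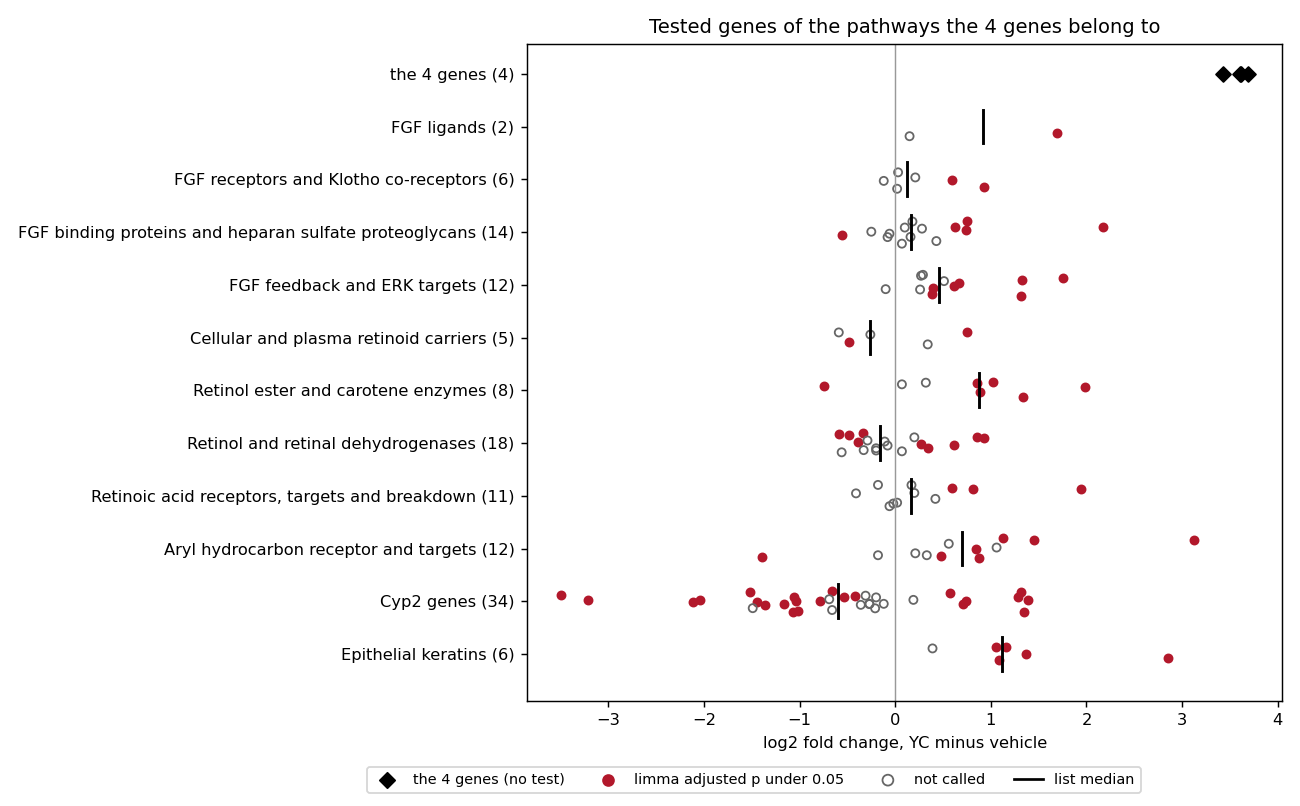
Log2 fold change of YC over vehicle livers for the tested genes of 11 pathway lists (red, limma adjusted p under 0.05, grey, not called, black line, list median), with the number tested in brackets and the 4 genes as diamonds on top. The 4 genes, selected on this difference, lie between 3.43 and 3.69, to the right of all list genes. The Cyp2 list is the one with most genes below 0.

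Among the partners of Fgfbp1, 1 of 2 tested FGF ligands rose, where 44.6% of all genes tested rose and 6.14% fell. Fgf21, the liver's FGF hormone, averaged 47.5 ± 22.2 RPKM with YC and 13.6 ± 4.25 RPKM with vehicle, a log2 difference of 1.69 ± 0.31 (limma adjusted p = 0.000151). Fgf1, a heparin-binding ligand, was at 0.15 (limma adjusted p = 0.425). Of 6 receptors and co-receptors 2 rose and none fell. Klb, the co-receptor FGF21 needs, rose by 0.93 (limma adjusted p = 9.46e-06), and the decoy-like receptor Fgfrl1 rose by 0.59 (limma adjusted p = 0.0044) but by 0.25 after median-ratio scaling, where it lost the call. Fgfr4, the main hepatocyte receptor, was at -0.12 (limma adjusted p = 0.809), and at 0.58 with a call without YC 6 and YC 7.

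Of 14 tested binding proteins and heparan sulfate proteoglycans 4 rose and 1 fell, where 44.6% and 6.14% of all genes tested did. Their median was 0.17, and after median-ratio scaling 3 rose and 2 fell. Gpc3, an oncofetal glypican, rose by 2.17 to 136 ± 59.1 RPKM with YC, against 30.1 ± 15.1 RPKM with vehicle (limma adjusted p = 1.31e-05). Sulf2, which trims sulfate from heparan sulfate, rose by 0.75 (limma adjusted p = 0.000123), and Gpc1 by 0.74 (limma adjusted p = 0.00482), the last without a call after median-ratio scaling. Fgfbp3, the other FGF-binding protein tested, rose by 0.62 at under 1 RPKM, and Sdc2 fell by 0.56 (both named after their values were seen). Sdc4, the uncalled one with the highest mean in vehicle livers, was at -0.06.

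Of 12 tested genes for feedback on FGF and ERK signals 7 rose and none fell. Their median was 0.45, against 0.31 over all genes tested, of which 44.6% rose and 6.14% fell. The phosphatases led, with Dusp4 at 1.75 (limma adjusted p = 5.94e-06), Dusp6 at 1.33 (limma adjusted p = 1.04e-05) and Dusp5 at 1.31 (limma adjusted p = 0.000758). After median-ratio scaling 4 rose and 1 fell. In vehicle against D0 livers 8 of the 12 fell and 1 rose, where 29.9% of all genes tested fell and 28.2% rose. Dusp6 averaged 49.9 ± 22.2 RPKM in YC livers, 18.1 ± 2.54 RPKM in vehicle livers and 87.1 ± 8.28 RPKM in D0 livers. The mean of Dusp6 was thus highest in D0 livers, where that of Fgfbp1 was lowest.

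Of 5 other retinoid carriers tested, 1 rose and 1 fell in YC against vehicle livers, where 44.6% and 6.14% of all genes tested did. After median-ratio scaling none rose and 3 fell. Fabp5, a fatty acid and retinoic acid carrier, rose by 0.75 (limma adjusted p = 0.0288), without a call after median-ratio scaling or without YC 1 and YC 2. The plasma carrier Ttr fell by 0.48 (limma adjusted p = 0.0229, not called without YC 1 and YC 2), its partner Rbp4 was at -0.26 (limma adjusted p = 0.0998) and the retinol-binding protein receptor Stra6l at -0.59 (limma adjusted p = 0.074). Without vehicle 1 and YC 4 both of these were called lower.

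Of 8 tested enzymes that make or split retinyl esters and carotene 5 rose and 1 fell, with a median of 0.87. Over all genes tested 44.6% rose and 6.14% fell, with a median of 0.31. After median-ratio scaling 3 of the 8 rose, and 2280 of all 12537 genes tested did. Bco1, which splits carotene into retinal, averaged 19.1 ± 7.26 RPKM with YC and 4.23 ± 0.93 RPKM with vehicle, a log2 difference of 1.98 (limma adjusted p = 2.8e-07). Lrat, which esterifies retinol, rose by 1.34 (limma adjusted p = 0.00163), and the hydrolase Lipe rose by 1.02 (limma adjusted p = 2.27e-05). Bco2, the other carotene-splitting enzyme, fell by 0.74 (limma adjusted p = 0.00691, named after its values were seen). Dgat1 was at 0.32 (limma adjusted p = 0.154).

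Of 18 tested retinol and retinal dehydrogenases 5 rose and 4 fell, where 44.6% and 6.14% of all genes tested did. Their median was -0.16, and after median-ratio scaling 1 rose and 9 fell, with a median of -0.50. Rdh13 rose by 0.93 (limma adjusted p = 2.51e-05), and Aldh1a1, which makes retinoic acid, rose by 0.85 (limma adjusted p = 0.00576) without a call after median-ratio scaling. Dhrs9 was at 0.61 with a limma adjusted p of 0.0499, at the threshold, and Adh1 at -0.29 (limma adjusted p = 0.109). Of 11 receptors, targets and breakdown enzymes of retinoic acid 3 rose and none fell, and after median-ratio scaling 2 rose and 2 fell. Cyp26b1, which breaks retinoic acid down, rose by 1.94 to 9.83 ± 4.87 RPKM with YC, against 2.14 ± 1.23 RPKM with vehicle (limma adjusted p = 0.000267). Tgm2 rose by 0.81 (limma adjusted p = 0.000712) and Rarb by 0.59 (limma adjusted p = 0.0244), Rarb without a call after median-ratio scaling or without YC 6 and YC 7. Dhrs9 lost its call there too. Rxra was at 0.17 (limma adjusted p = 0.473).

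Cyp2s1 was set beside its relatives and beside targets of the aryl hydrocarbon receptor. Of 34 tested Cyp2 genes 7 rose and 16 fell, where 44.6% and 6.14% of all genes tested did. Their median was -0.60, where Cyp2s1 had 3.62, and after median-ratio scaling 4 rose and 18 fell. Cyp2c54 fell by 3.49 (limma adjusted p = 4.26e-05), with 9.68 ± 10.1 RPKM with YC and 74.5 ± 28.0 RPKM with vehicle. Cyp2c50 fell by 3.21 (limma adjusted p = 3.5e-06) and Cyp2c44 by 2.11 (limma adjusted p = 0.000308). Reads of near-identical Cyp2c copies may have been divided between rows, which makes their single values uncertain. Cyp2d10, the uncalled member with the highest mean in vehicle livers, was at -0.27 (limma adjusted p = 0.169), and called lower without vehicle 1 and YC 4.

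Of 12 tested aryl hydrocarbon receptor genes 6 rose and 1 fell, where 44.6% and 6.14% of all genes tested did. After median-ratio scaling 3 of the 12 rose, and 2280 of all 12537 genes tested did. Cyp1a1 averaged 95.6 ± 45.5 RPKM with YC and 12.7 ± 8.24 RPKM with vehicle, a log2 difference of 3.12 ± 0.45 (limma adjusted p = 1.15e-05). Nqo1, a quinone reductase, rose by 1.45 (limma adjusted p = 0.00155). Cyp1a2, a hepatocyte target of the same receptor, fell by 1.39 (limma adjusted p = 0.00182). In vehicle against D0 livers 3 of the 12 rose and 6 fell, where 28.2% of all genes tested rose and 29.9% fell.

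Of 6 tested epithelial keratins other than Krt20, 5 rose and none fell, where 44.6% and 6.14% of all genes tested did. Their median was 1.12, and 4 rose after median-ratio scaling, as did 2280 of all 12537 genes tested. Krt76, a keratin of oral epithelium, rose by 2.85 (limma adjusted p = 1.83e-06), with 6.41 ± 5.01 RPKM with YC and 0.268 ± 0.241 RPKM with vehicle. Krt23 rose by 1.37 (limma adjusted p = 0.000295). The hepatocyte pair Krt8 and Krt18 rose by 1.16 (limma adjusted p = 0.000346) and 1.05 (limma adjusted p = 0.00109), with Krt8 at 685 ± 188 RPKM with YC and 316 ± 113 RPKM with vehicle. Of the bile duct keratins, Krt19 rose by 1.08 (limma adjusted p = 0.0191), without a call after median-ratio scaling or without YC 1 and YC 2, and Krt7 was at 0.39 (limma adjusted p = 0.236).

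Krt20 and Rbp2 are known from the gut, and Cyp2s1 from epithelia outside the liver. Markers of gut and of other cell types were therefore examined in every library. Of 30 intestinal genes 11 passed the filter, of which 6 rose and none fell, where 44.6% of all genes tested rose. After median-ratio scaling 4 of the 11 rose, and 2280 of all 12537 genes tested did. Muc13, a membrane mucin, rose by 2.83 (limma adjusted p = 2.61e-07), Gpx2 by 1.81 (limma adjusted p = 0.000611) and Apoa4, which the liver also makes, by 1.73 (limma adjusted p = 6.35e-06). Fabp2 was at 0.10 (limma adjusted p = 0.793). The summed level of the 30 genes was 867 to 1525 RPKM in YC livers, 242 to 581 RPKM in vehicle livers and 95.7 to 215 RPKM in D0 livers. Apoa4 alone made up 57.1 to 83.6% of it with YC, 56.7 to 71.5% with vehicle and 49.4 to 68.7% at D0. The other 29 genes summed to 175 to 421 RPKM in YC livers, 105 to 168 RPKM in vehicle livers and 46.5 to 68.8 RPKM in D0 livers. Of the 30 genes 9 were under 1 RPKM in all 22 livers, among them the transcription factors Cdx1 and Cdx2 and the disaccharidase Sis. The other called genes were Tff3, a secreted trefoil peptide, at 1.34 (limma adjusted p = 0.00387), the microvillus protein Vil1 at 0.91 (limma adjusted p = 0.00982) and the trehalase Treh at 0.87 (limma adjusted p = 0.013), Vil1 and Treh without a call after median-ratio scaling.

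YC 4 and vehicle 1 stood apart. Alpi, intestinal alkaline phosphatase, was at 32.7 RPKM in YC 4, and at most at 0.238 RPKM in the other YC livers and 0.0138 RPKM in vehicle livers. Cdh17, an intestinal cadherin, was at 4.05 RPKM in YC 4 and at most at 0.252 RPKM in the other YC livers, and Vil1 was highest in YC 4 too, at 5.43 RPKM. Reg3g, an antimicrobial lectin of the gut, was at 12.3 RPKM in YC 4 and at most at 0.0369 RPKM in any other liver. Pancreatic Prss2 was at 135 RPKM in YC 4 and 65.3 RPKM in vehicle 1, and at most 0.409 RPKM in the other 20 livers. Summed over 16 acinar genes this was 1353 RPKM in YC 4 and 519 RPKM in vehicle 1. YC 4 was the lowest YC liver for Fgfbp1, Cyp2s1 and Rbp2 and nearly the lowest for Krt20. Without YC 4 and vehicle 1, a setting chosen after seeing the data, YC minus vehicle was 3.93 for Fgfbp1, 3.94 for Cyp2s1, 3.94 for Krt20 and 3.66 for Rbp2, larger than with them.

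**Figure D4:**
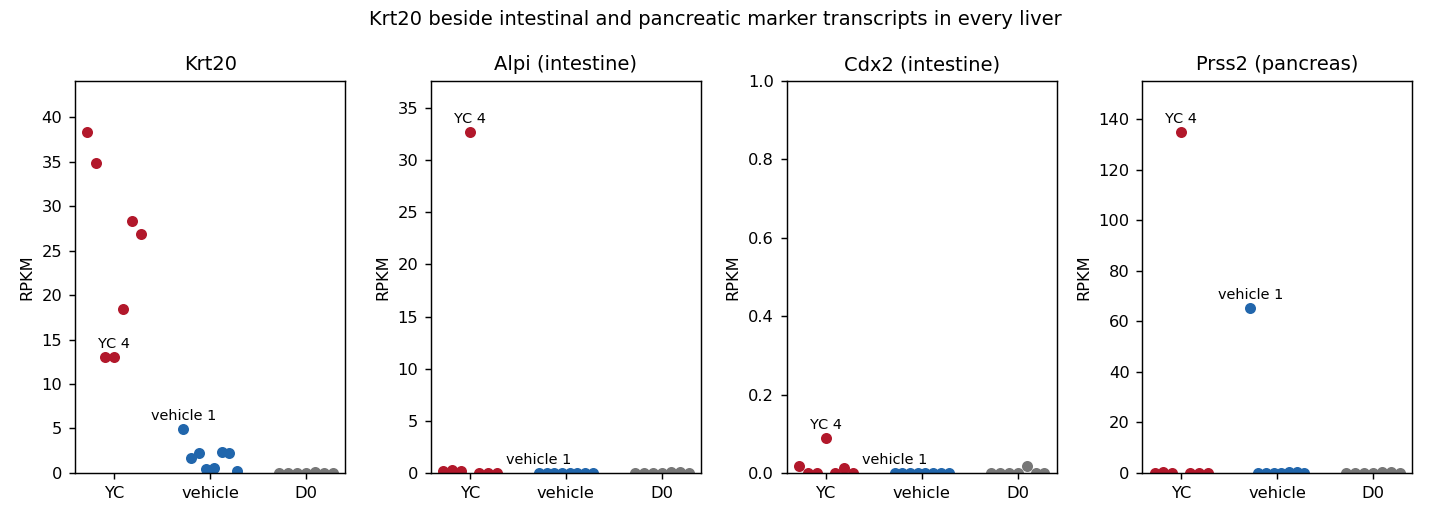
RPKM of Krt20, of the intestinal genes Alpi and Cdx2 and of the pancreatic gene Prss2 in each of 7 YC, 8 vehicle and 7 D0 livers, with YC 4 and vehicle 1 named. Alpi at 32.7 RPKM and Prss2 at 135 RPKM mark YC 4, where Krt20 is 13.1 RPKM, near the lowest of the YC livers, and Cdx2 is under 1 RPKM in all livers.

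Markers of other epithelia and liver cells are given beside the share over all genes tested, of which 44.6% rose and 6.14% fell in YC livers. After median-ratio scaling 2280 of the 12537 genes rose and 2097 fell. Summed bile duct markers, 18 genes, were 244 to 538 RPKM in YC livers, 216 to 466 RPKM in vehicle livers and 98.2 to 152 RPKM in D0 livers. Of 15 tested 6 rose in YC livers and none fell, and after median-ratio scaling 4 rose and 2 fell. The tight junction gene Cldn4 led at 2.99 (limma adjusted p = 5.31e-07), followed by Ggt1 at 2.18 (limma adjusted p = 5.94e-06), while Spp1 was at 0.01. Of 5 tested squamous genes 3 rose, with Sprr1a at 2.29 (limma adjusted p = 0.00106) and Ivl at 1.91 (limma adjusted p = 1.83e-06). Krt14, Krt6a and Trp63 were under 1 RPKM in all livers. The basal keratin Krt5, which did not pass the filter on low values, was between 0.479 and 3.19 RPKM in YC livers and at most 0.338 RPKM in vehicle livers. Of 3 urothelial genes Psca rose by 1.64 (limma adjusted p = 6.18e-05), and the uroplakins Upk1b and Upk3b were not called, at 0.03 (limma adjusted p = 0.955) and -0.11 (limma adjusted p = 0.9). Upk3b reached 8.75 RPKM with YC and 9.86 RPKM with vehicle, and Upk1a, Upk2 and Upk3a were under 1 RPKM in all livers. Neither of 2 tested gastric genes passed, 2 of 9 mesothelial genes rose and none after median-ratio scaling. Of 14 stellate genes 7 rose and none fell, and after median-ratio scaling 2 rose and 1 fell.

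The summed level of 8 hepatocyte genes was lower with YC, with ranges that overlap. In whole liver fewer cells of a type and less RNA per cell cannot be told apart. The sum was 33488 to 65461 RPKM in YC livers, 61960 to 95667 RPKM in vehicle livers and 51718 to 70358 RPKM in D0 livers. Alb alone was 14424 to 41031 RPKM with YC, 38276 to 72566 RPKM with vehicle and 32573 to 51561 RPKM at D0. Alb held a large part of the sum and of its difference between YC and vehicle livers. Without Alb the levels of the other genes overlapped between both groups over much of their ranges, so the lower sum is not shown for them. Y-linked transcripts were found in 3 of 7 YC livers (YC 1, YC 2 and YC 3) and in 8 of 8 vehicle livers. Among libraries with these transcripts only, YC minus vehicle was 3.95 for Fgfbp1, 4.34 for Cyp2s1, 3.78 for Krt20 and 3.47 for Rbp2. The part of cell types in the levels of the 4 genes was not tested.

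Genes next to the 4 on the chromosome had smaller differences between YC and vehicle livers, as nearly any gene has beside genes selected on this difference. Of all genes tested 44.6% were called higher and 6.14% lower in YC livers. Near Fgfbp1, Prom1, 11.8 kb away, was at 0.74 ± 0.30 (SE, limma adjusted p = 0.0444), Tapt1 at 0.80 (limma adjusted p = 0.000105), Bst1 at 0.80 (limma adjusted p = 0.0108) and Cd38 at 0.13 (limma adjusted p = 0.547). Near Rbp2, Nmnat3 was at 0.52 (limma adjusted p = 0.000325), Copb2 at 0.46 (limma adjusted p = 0.00357) and Mrps22 at 0.31 (limma adjusted p = 0.188). Near Cyp2s1, Axl was at -0.04, Hnrnpul1 at 0.40 (limma adjusted p = 0.00457), Cyp2b10 at -0.20 and Cyp2b13 at -1.06 (limma adjusted p = 0.0244). Near Krt20, Krt23 was at 1.37, Krt10 at 0.13, and Krt12 and Krt40 did not pass the filter on low values. The calls of Prom1, Nmnat3, Copb2 and Hnrnpul1 were lost after median-ratio scaling, those of Prom1 and Cyp2b13 without YC 6 and YC 7, and those of Bst1 and Cyp2b13 without YC 1 and YC 2.

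**Figure D5:**
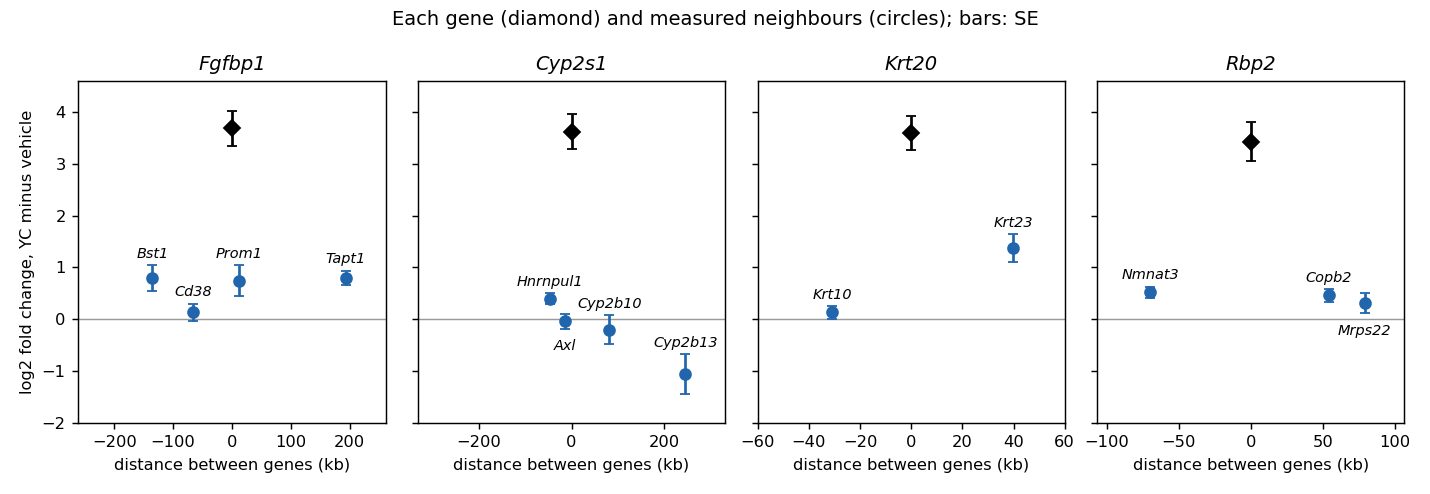
Log2 fold change of YC over vehicle livers (± SE) for each of the 4 genes (diamond at 0) and for measured neighbours (circles), against the distance between the genes in kb. The 4 genes, selected on this difference, lie between 3.43 and 3.69 and the neighbours between -1.06 and 1.37.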

How the data were processed

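RNA sequencing of 22 whole livers was analysed from 1 table. The authors deposited RPKM values (reads normalised for gene length and sequencing depth), 1 column per library. Per the submitters' processing notes, the tools were TopHat 1.4.1 and Cufflinks 1.3.0 and the build mm10, with no roles given. No source used here gives the annotation, filters or use of strand, so overlapping or antisense genes cannot be told apart.

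Values were taken as log2(RPKM + 0.5). The 12537 genes that reached 0.5 RPKM in 7 or more libraries were fitted with limma 3.58.1 (trend and robust, R 4.3.3) in a single model of the 3 groups over 22 libraries, and Benjamini-Hochberg adjusted p-values over all genes were called under 0.05. The fit was tested on simulated data. Relations used exact permutation tests (Python 3.11.15). P-values measure the spread between these libraries. Depth came from the spacing of low values. Only 38.0% to 44.5% of low values came out as whole reads within 0.05, too few for a count test. The closest libraries of a group, YC 1 and YC 2, still differed, by a chi-square that averaged 9.04 per gene (628 genes), so none was counted as a repeat.

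The 4 genes, the gene lists and the naming rule were chosen with earlier results of these data known. The rule named the 5 genes most alike over 22 libraries and 3 by deviations, 2 neighbours on each side, the genes next in rank, and in each list up to 3 called genes with the largest change and the uncalled one with the highest vehicle mean, with all carriers and keratins tested. A few results under this rule are not reported here. Alternatives were other pseudocounts, no filter, median-ratio, quantile and equal-total scaling, array weights, a replicate block and fits without some libraries.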

Additional observations from a re-analysis of the deposited data

Results flagged for a closer look

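In each group of 7 or 8 livers, the highest and lowest values of the 4 genes, of Fah and of 9 summed marker lists were checked for a gap to the next liver that is large for the group's range (Dixon's test). Of 42 groups checked 5 were marked, and chance marks about 1 in 20. D0 6 was the highest D0 liver for Fgfbp1, at 0.207 RPKM with the next at 0.0731 RPKM, and for Rbp2, at 0.197 RPKM with the next at 0.0580 RPKM. These are 14 and 7 reads. Vehicle 1 was the highest vehicle liver for Krt20, at 4.93 RPKM with the next at 2.40 RPKM. Summed pancreatic acinar markers were 1353 RPKM in YC 4, with 107 RPKM in the next YC liver, and 519 RPKM in vehicle 1, with 35.3 RPKM in the next vehicle liver.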

How the results depend on the processing

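For the 4 genes, YC minus vehicle kept its direction and moved by less than the spread between livers under the 13 alternatives, between 3.38 and 4.05 for Fgfbp1, 3.24 and 4.34 for Cyp2s1, 3.25 and 4.03 for Krt20 and 3.05 and 3.66 for Rbp2. Vehicle minus D0 stayed past the threshold for all 4 genes under its 13 alternatives, with a highest p of 0.00285. Low D0 levels make YC minus D0 depend on the pseudocount. With 0.1 RPKM it was 7.50 for Fgfbp1, 6.58 for Cyp2s1, 7.57 for Krt20 and 8.40 for Rbp2, with 1 RPKM 4.84, 4.36, 4.55 and 5.39 in the same order, and for Fgfbp1 5.29 after quantile normalization. Genes called higher in YC than in vehicle livers numbered 2280 after median-ratio scaling and 2257 after quantile normalization. Genes called lower numbered 2097 and 2109 there, 1391 with array weights and 421 without YC 1 and YC 2. Of the pathway list genes 26 rose after median-ratio scaling and 26 after quantile normalization, and 37 fell after median-ratio scaling and 15 without YC 1 and YC 2. The cause was not tested.

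In YC livers Fgfbp1 with Krt20 missed the threshold after median-ratio scaling (r = 0.82), without the 2 livers farthest from the median (0.91) and without vehicle 1 and YC 4 (0.93). With fewer livers the exact test has fewer pairings and its smallest possible p is larger. The misses at 0.91 and 0.93 therefore do not show a weaker relation. In vehicle livers Fgfbp1 with Rbp2 missed it without the farthest livers (0.90), where 6 points are left. Cyp2s1 with Krt20 missed it with 0.1 RPKM (0.74), after median-ratio scaling (0.77), without the farthest livers (0.91) and without vehicle 1 and YC 4 (0.77). Cyp2s1 with Rbp2 missed it after median-ratio scaling (0.79), without the farthest livers (0.56) and without vehicle 1 and YC 4 (0.86). Fgfr4 reversed without YC 6 and YC 7, to 0.58. Of the 79 list and neighbour genes followed, median-ratio scaling ended 13 calls and added 5.

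Same-numbered livers did not pair (correlations of their deviations between -0.39 and 0.23). With the replicate block 6002 genes were called in YC minus vehicle and 7129 in vehicle minus D0, against 6357 and 7278, and YC minus vehicle was 3.49 for Fgfbp1, 3.57 for Cyp2s1, 3.40 for Krt20 and 3.27 for Rbp2. D0 levels of 0 to 55 reads limit the precision of differences from D0.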
